A study of Caenorhabditis elegans with 6 samples.

Results

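The cytosolic ribosomal protein genes are those whose annotated symbol starts with rpl- (large subunit) or rps- (small subunit) and that have a probe set listing no other gene. There are 75 of them among 17118 genes on the array, 45 of the large and 30 of the small subunit. Where a gene has several such probe sets, the one with the highest mean over all 6 arrays stands for it. A member was called dim if that mean lay at least 2 log2 units below the median of all members, which put the boundary at 12.23. Only rpl-42 (mean 7.96) fell below it; the nearest member above it was rpl-41.1 (mean 12.55). The dim group therefore holds 1 gene, and the other 74 members, 44 of the large and 30 of the small subunit, are called bright.

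The samples were whole Caenorhabditis elegans of strain CB3474 with genotype ben-1(e1880)III. The ben-1 gene encodes a β-tubulin, and worms that lack it resist benzimidazoles, the class of microtubule-binding drugs to which albendazole belongs. About 10000 synchronised worms per condition were grown for 70 h at 20 °C in liquid culture, by which time the labels call them adult. The 3 albendazole (ABZ) samples then spent 4 h in 300 µg/ml of the drug with 1.5% dimethyl sulfoxide (DMSO), and the 3 DMSO samples spent 4 h in 1.5% DMSO alone. They are labelled as biological replicates, numbered 1 to 3 in each group. Every group carried the ben-1 mutation, so wild-type worms were not compared. RNA came from whole animals, in which fewer cells of a type and less RNA per cell cannot be told apart.

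Ribosomes are built from ribosomal RNA and a set of proteins, nearly all present in a single copy. The small subunit reads the messenger RNA, and the large subunit joins the amino acids and passes the growing chain through an exit tunnel. Messenger RNAs for ribosomal proteins are among the most abundant in growing cells and are made in step with each other. In an adult hermaphrodite much of the demand for ribosomes comes from the germline, which loads them into oocytes. Roles given below for single proteins are known mostly from yeast and mammalian ribosomes.

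One array differed from the rest. The correlation of DMSO replicate 1 with each other array over all probe sets lay between 0.934 and 0.943, against 0.988 to 0.996 among the other arrays, and the SD of its values over all probe sets was 1.73, against 1.98 to 2.02. The labels give no reason for this, and the fold changes of named genes are given with it and, for most, without it. Markers of the tissues in a whole worm were all on the array except 1 sperm gene, and their part in the results was not tested. DMSO replicate 1 held the lowest value of 9 of 10 germline, 4 of 5 muscle, 4 of 5 neuron, 3 of 6 intestine, 2 of 4 epidermis and 0 of 4 sperm markers. Over all genes it held the lowest value of 46.3%. The summed linear signal of the germline markers ranged from 30300 to 35714 with ABZ and from 19970 to 37583 with DMSO. That of the sperm markers ranged from 2703 to 12090 with ABZ and from 2259 to 9382 with DMSO. The median log2 fold change, ABZ minus DMSO, of the germline markers was 0.15, with 9 of 10 positive. Without DMSO replicate 1 it was -0.15, with 1 of 10 positive. For the sperm markers these medians were 0.15 and 0.51, for muscle 0.13 and -0.069, and for neurons 0.28 and 0.16. For intestine they were 0.033 and 0.022, and for epidermis 0.0020 and 0.082. The 3′ minus 5′ log2 difference of the array's glyceraldehyde phosphate dehydrogenase controls, a measure of RNA integrity, was -0.18, -0.33 and -0.23 with ABZ and -0.37, -0.41 and -0.27 with DMSO, so the groups overlapped. Their 3′ minus middle difference was -0.63, -0.65 and -0.63 with ABZ and -0.84, -0.73 and -0.69 with DMSO; here the groups did not overlap, and DMSO replicate 1 was lowest. The 3′ minus 5′ difference of the actin controls was 0.47, 0.48 and 0.33 with ABZ and 0.50, 0.44 and 0.36 with DMSO, with overlap. The part of these measures in the results was not tested.

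The comparison asks whether ribosomal protein transcripts differ in amount after brief contact with albendazole in the ben-1 mutant. No member was called higher or lower. On the probe sets that stand for the bright members the log2 fold change, ABZ minus DMSO, ran from -0.072 to 0.13. The largest of these differences was 1.09-fold. The median was 0.016 for the large subunit and 0.024 for the small subunit, against 0.016 over all 17118 genes. Without DMSO replicate 1 these medians were -0.015, -0.0065 and -0.022.

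**Figure D1:**
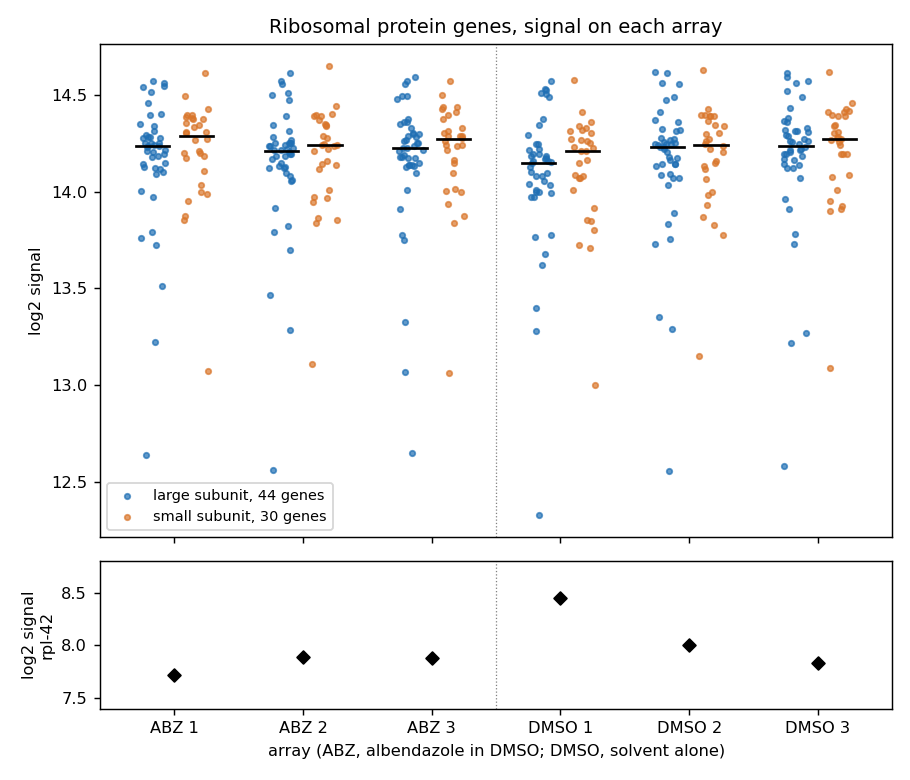
Log2 signal of each ribosomal protein gene (points) on each of the 6 arrays, with the median of the 44 large-subunit and 30 small-subunit bright genes as black bars, and rpl-42 in the lower panel on its own scale. The medians lie between 14.15 and 14.29 on all arrays and are lowest on DMSO replicate 1, where rpl-42 is highest.

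The bright members sat near the upper end of the signal range. The median member was at the 99.7th percentile of all probe sets, and the lowest bright one, rpl-41.1, at the 97.7th. The large-subunit median was 14.23, 14.21 and 14.23 on ABZ replicates 1, 2 and 3, and 14.15, 14.23 and 14.24 on DMSO replicates 1, 2 and 3. The small-subunit median was 14.29, 14.24 and 14.27 with ABZ and 14.21, 14.24 and 14.27 with DMSO. For both subunits DMSO replicate 1 was lowest, and the other 5 arrays overlapped between the groups. The highest value of any probe set on an array was 14.80 to 14.89, and the highest ribosomal protein value was 14.58 to 14.65. How far signals so near the top still follow the amount of RNA was not tested. A level here is a property of the probe set as much as of the gene, so the percentiles and the dim boundary place probe sets by brightness and do not compare amounts of RNA between genes.

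The limma test, fitted over all 22548 probe sets with Benjamini-Hochberg adjustment, called 0 of 75 members at an adjusted p under 0.05, against a background of 0% of all probe sets. At an unadjusted p under 0.05 it picked 0 members, against backgrounds of 1.52% higher and 0.341% lower. The smallest adjusted p of a member was 0.651. Each member's 95% interval covers only that gene. On the probe sets that stand for the bright members these intervals reached from -0.32 at the lowest to 0.40 at the highest. A difference of more than 1.32-fold lay outside each of them. Without DMSO replicate 1 these intervals reached from -0.27 to 0.32. With all arrays, the intervals of all 111 single-gene probe sets of the members reached from -0.94 to 0.50. A further bright probe set of rpl-26 had a log2 fold change of 0.14, with an interval of -0.21 to 0.50.

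**Figure D2:**
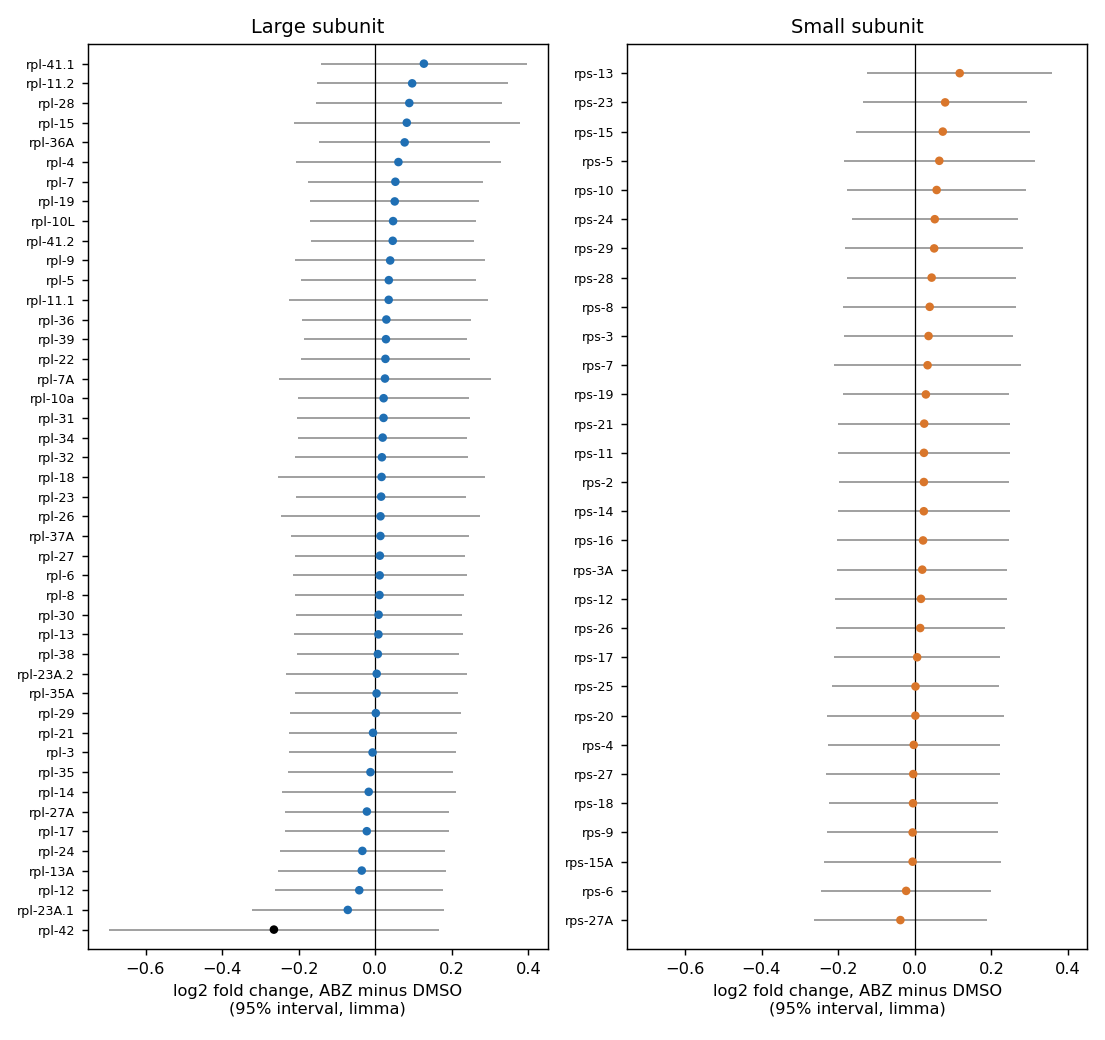
Log2 fold change (ABZ minus DMSO) of every member with its 95% interval from limma (n = 3 each), sorted within each subunit; rpl-42 is black. All 75 intervals cross 0, and all bright points lie between -0.072 and 0.13.

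limma moderates each gene's variance towards that of the whole array, which widened these intervals. The median SE of the log2 fold change of a bright member was 0.092, and the median SE from the members' own spread was 0.037. With an intensity trend in the variance and robust settings together, the median SE was 0.058 and the smallest unadjusted p of a bright member 0.147. Within a group, the median SD of a bright member was 0.046 with all arrays and 0.032 without DMSO replicate 1. Over all genes these medians were 0.22 and 0.087.

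The signs of the fold changes depended on DMSO replicate 1 and on the scaling. Leaving that array out turned the sign of 28 of the 74 bright members, and quantile and cyclic loess normalization, with it in, turned 34 and 38. With all arrays 57 of 75 members (76%) were positive, against 52.2% of all genes. Without that array 29 of 75 (38.7%) were positive, against 41.4% of all genes. That array held the lowest value of 53 of 75 members (70.7%), against 46.3% of all genes, and the highest value of none of the bright members. Of the 196 other genes with a mean of 13 or more, 161 were positive with all arrays and 91 without DMSO replicate 1, and 147 had their lowest value on it. The sign of the medians also turned under quantile normalization (-0.020 for the large and -0.0098 for the small subunit) and under cyclic loess normalization (-0.018 and -0.0092). Of the 74 bright members 57 were positive and 17 negative as deposited, 65 and 9 with the arrays shifted to 1 median, 23 and 51 after quantile and 19 and 55 after cyclic loess normalization.

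**Figure D3:**
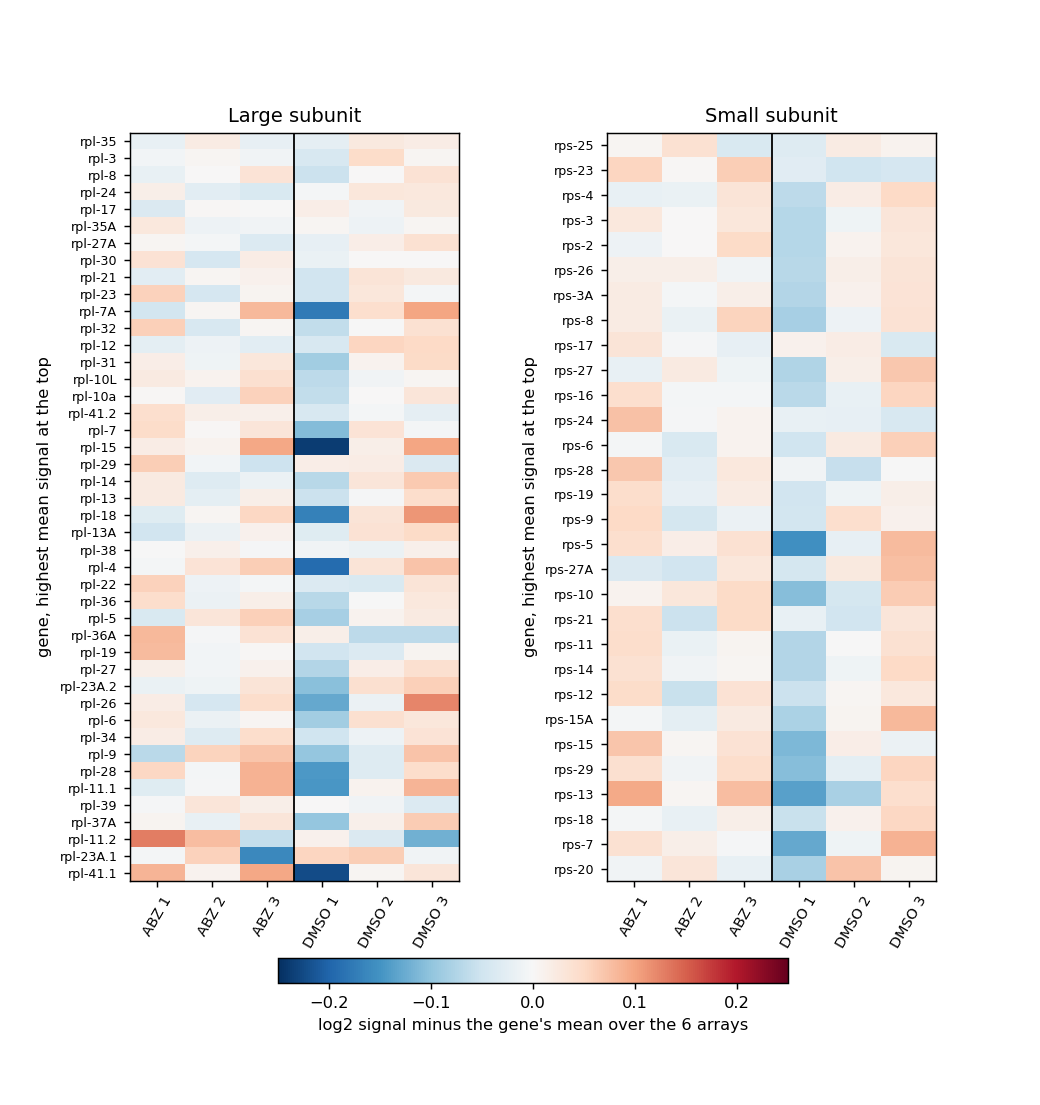
Log2 signal of each bright member minus its own mean over the 6 arrays, large subunit left and small subunit right, with genes ordered by mean signal. DMSO replicate 1 is the column with the most negative values, the lowest of the 6 in 53 genes; ABZ replicates 1 to 3 and DMSO replicates 2 and 3 show both signs.

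Among proteins of the large subunit that act around the factor-binding site and the 5S ribosomal RNA, rpl-12 encodes a protein at the base of the stalk where elongation factors dock. Its signal was 14.24, 14.25 and 14.24 with ABZ and 14.22, 14.32 and 14.31 with DMSO, a log2 fold change of -0.042 (SE 0.090), or -0.073 without DMSO replicate 1. The ABZ values lay inside the range of the DMSO values. The L11 protein, which enters the ribosome together with the 5S RNA, has a pair of genes. For rpl-11.1 the signal was 13.79, 13.82 and 13.91 with ABZ and 13.68, 13.83 and 13.91 with DMSO, so that the groups were alike outside DMSO replicate 1. For rpl-11.2 it was 13.51, 13.46 and 13.33 with ABZ and 13.40, 13.35 and 13.27 with DMSO. The log2 fold change of rpl-11.2 was 0.096 (SE 0.10, adjusted p 0.659 in limma). Leaving out DMSO replicate 1 gave 0.13, the highest among the members there. Its values nonetheless overlapped between the groups, and ABZ replicate 3 was below DMSO replicates 1 and 2. For rpl-11.1 the log2 fold change was 0.035 with all arrays and -0.029 without DMSO replicate 1.

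The L23A protein lines the end of the exit tunnel, where targeting factors and chaperones meet the new chain, and also has a pair of genes. Signals of rpl-23A.1 were 13.22, 13.28 and 13.07 with ABZ and 13.28, 13.29 and 13.22 with DMSO. This gene had the lowest log2 fold change of the bright members, at -0.072 (SE 0.10, 95% interval -0.32 to 0.18), and ABZ replicate 3 held its lowest value. It was -0.0094 without ABZ replicate 3 and -0.063 without DMSO replicate 1. Signals of rpl-23A.2 were 14.09, 14.10 and 14.14 with ABZ and 14.001, 14.15 and 14.17 with DMSO, a log2 fold change of 0.0037 that turned to -0.048 on leaving out DMSO replicate 1. L41 is the smallest ribosomal protein, a short basic peptide, and its genes rpl-41.1 and rpl-41.2 are neighbours in the RefSeq gene order. Signals of rpl-41.1 were 12.64, 12.56 and 12.65 with ABZ and 12.33, 12.56 and 12.58 with DMSO. Its log2 fold change of 0.13 (SE 0.11, 1.09-fold) was the highest of the bright members and became 0.047 without DMSO replicate 1. Signals of rpl-41.2 were 14.28, 14.25 and 14.25 with ABZ and 14.20, 14.23 and 14.22 with DMSO, a log2 fold change of 0.046 (SE 0.087), or 0.037 without DMSO replicate 1. Here all ABZ values lay above all DMSO values, by a margin smaller than the moderated SE from limma. The within-group SD of rpl-41.2 was 0.017. Whether the probe sets tell such paralogs apart was not tested.

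Of other large-subunit members with the smallest p values, none passed. The rpl-28 gene encodes a protein that is present in animals and missing from budding yeast; it measured 13.97, 13.92 and 14.01 with ABZ and 13.78, 13.89 and 13.96 with DMSO (log2 fold change 0.089, and 0.039 without DMSO replicate 1). A protein near the site where spent transfer RNA leaves is encoded by rpl-36A, at 14.22, 14.13 and 14.17 with ABZ and 14.15, 14.07 and 14.07 with DMSO. Its log2 fold change of 0.077 (SE 0.091) was 0.10 without DMSO replicate 1, and the groups overlapped through ABZ replicate 2 and DMSO replicate 1. The rpl-24 protein, which in yeast joins the large subunit late, in the cytoplasm, had a negative value of -0.034 (-0.045 without DMSO replicate 1). Its signal was 14.55, 14.51 and 14.50 with ABZ and 14.53, 14.56 and 14.56 with DMSO. The rpl-13A gene measured 14.15, 14.18 and 14.21 with ABZ and 14.17, 14.23 and 14.25 with DMSO, a log2 fold change of -0.035 (-0.060 without DMSO replicate 1). For rpl-10L, of the L10 family that completes the large subunit, all ABZ values (14.28, 14.27 and 14.30) lay above all DMSO values (14.19, 14.25 and 14.26), with a log2 fold change of 0.046 (0.025 without DMSO replicate 1).

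Among small-subunit members, rps-23 encodes a protein of the decoding centre. Its signal was 14.49, 14.44 and 14.50 with ABZ and 14.41, 14.39 and 14.40 with DMSO, so the groups did not overlap. The log2 fold change was 0.079 (SE 0.088, 1.06-fold, adjusted p 0.664 in limma) and 0.085 without DMSO replicate 1. A further probe set of rps-23 gave 14.02, 14.01 and 14.002 with ABZ and 13.94, 13.92 and 13.93 with DMSO. Again the groups did not overlap, and the log2 fold change was 0.082. The within-group SD of rps-23 was 0.024 on the first probe set and 0.010 on the further one. The rps-24 gene, at 14.35, 14.28 and 14.29 with ABZ and 14.26, 14.26 and 14.24 with DMSO, did not overlap either (log2 fold change 0.052, and 0.056 without DMSO replicate 1). With rpl-10L, rpl-41.2, rps-23 and rps-24, all 3 ABZ values lay above all 3 DMSO values in 4 of 75 members (5.33%), against 7.17% of all genes. The reverse order held in 0 members, against 10.2% of all genes. With 3 samples against 3, a two-sided exact permutation test of a single gene cannot give a p below 0.10.

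The highest fold change of the small subunit belonged to rps-13, with a log2 fold change of 0.12 (SE 0.099, 1.08-fold) and 0.079 without DMSO replicate 1. Its signal was 13.95, 13.86 and 13.94 with ABZ and 13.72, 13.78 and 13.90 with DMSO; DMSO replicate 3 was above ABZ replicate 2. The rps-15 protein, which helps export the small subunit from the nucleus in yeast, measured 14.04, 13.97 and 14.004 with ABZ and 13.85, 13.98 and 13.95 with DMSO, a log2 fold change of 0.073, or 0.035 without DMSO replicate 1. The rps-5 protein lies at the channel through which messenger RNA leaves. Its signal was 14.27, 14.24 and 14.26 with ABZ and 14.07, 14.21 and 14.31 with DMSO, and its log2 fold change of 0.064 was 0.0031 without DMSO replicate 1. The lowest value of the small subunit was -0.037 (SE 0.093) for rps-27A, whose mammalian counterpart is made as a fusion with ubiquitin, at 14.17, 14.16 and 14.24 with ABZ and 14.17, 14.24 and 14.28 with DMSO. It was -0.069 without DMSO replicate 1 and -0.0094 without DMSO replicate 3. The gene for the S6 protein, the classical target of S6 kinase, was at -0.022: rps-6 measured 14.27, 14.24 and 14.29 with ABZ and 14.23, 14.30 and 14.34 with DMSO. It was -0.053 without DMSO replicate 1 and turned to 0.0020 without DMSO replicate 3. In both genes the groups overlapped. The other negative values of the small subunit were near 0. Of these, rps-9 had -0.0054, at 14.31, 14.21 and 14.24 with ABZ and 14.21, 14.30 and 14.27 with DMSO, and rps-15A had -0.0055. Those of rps-18, rps-27 and rps-4 were -0.0045, -0.0039 and -0.0026. Without DMSO replicate 1 rps-9 and rps-15A had -0.030 and -0.047, and without ABZ replicate 2 they turned to 0.016 and 0.0055.

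The dim member, rpl-42, behaved unlike the bright ones on DMSO replicate 1. Its signal was 7.72, 7.89 and 7.88 with ABZ and 8.45, 8.005 and 7.83 with DMSO, and its mean was at the 56.6th percentile of all probe sets. The mean was 7.83 ± 0.094 with ABZ and 8.10 ± 0.32 with DMSO (SD, n = 3 each). The log2 fold change was -0.26 (SE 0.18, 95% interval -0.70 to 0.17, adjusted p 0.651 in limma), 1.201-fold lower with ABZ, and became -0.088 without DMSO replicate 1. Its highest value was on that array, 0.58 above the mean of the other 5. The same array held the highest value of 6376 of all 17118 genes, so this is not particular to rpl-42. DMSO replicate 3 lay between ABZ replicates 1 and 3, so the groups overlapped. Without detection calls in the table, this probe set could not be placed above or below background.

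Several genes are measured more than once. The 75 members have 111 probe sets that list them alone, and 32 members have more than 1. In 12 of these 32, the probe sets differed in the sign of the fold change. For rpl-13A the values were -0.035 and 0.091, for rpl-15 0.082 and -0.031, and for rpl-21 -0.0059 and 0.14. The other 9 were rpl-8, rpl-18, rpl-24, rpl-38, rps-9, rps-10, rps-15A, rps-18 and rps-21. For rpl-15, the probe set used measured 14.25, 14.24 and 14.33 with ABZ and 13.996, 14.25 and 14.33 with DMSO. Its second probe set measured 14.13, 14.15 and 14.14 with ABZ and 14.12, 14.17 and 14.23 with DMSO, so the low value of DMSO replicate 1 was larger in one probe set than in the other.

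**Figure D4:**
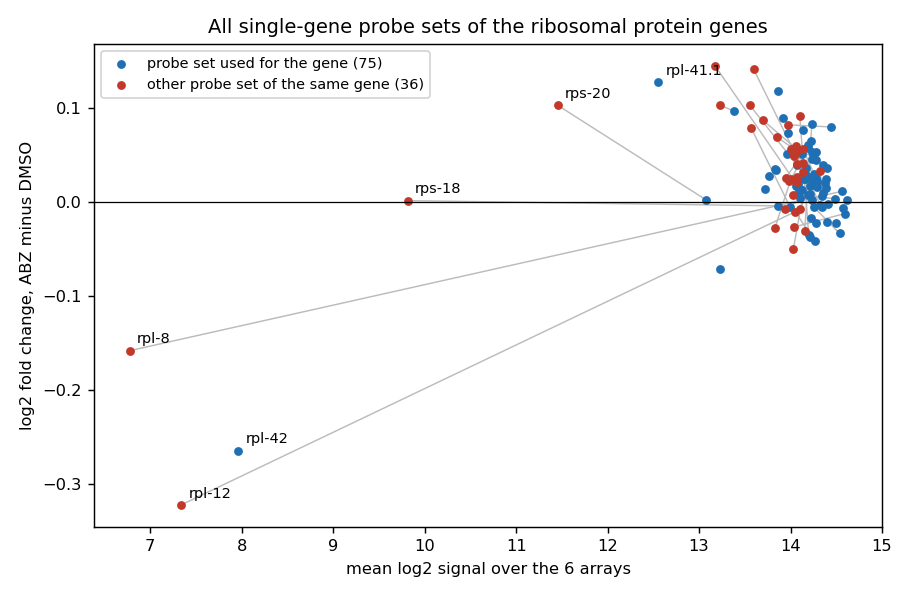
Log2 fold change (ABZ minus DMSO) against mean log2 signal for all 111 single-gene probe sets; grey lines join probe sets of the same gene. Most points lie at the bright end close to 0, while 2 dim further probe sets of rpl-8 and rpl-12 lie near the position of rpl-42.

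Dim probe sets also exist for genes whose other probe sets are bright. The rpl-8 protein supports the peptidyl transferase centre. Its bright probe set averaged 14.56 and its dim one 6.78. On the dim one the signal was 6.53, 6.71 and 6.86 with ABZ and 7.08, 6.84 and 6.65 with DMSO, a log2 fold change of -0.16 (SE 0.15), against 0.011 on the bright one. For rpl-12 the dim probe set measured 7.05, 7.18 and 7.31 with ABZ and 8.07, 7.18 and 7.26 with DMSO, a log2 fold change of -0.32 (SE 0.25), or -0.039 without DMSO replicate 1. On both, as for rpl-42, DMSO replicate 1 was the highest array. A probe set of rps-18 at 9.81 varied little, with 9.82, 9.81 and 9.82 with ABZ and 9.79, 9.83 and 9.82 with DMSO. A less bright probe set of rps-20 measured 11.52, 11.48 and 11.52 with ABZ and 11.2002, 11.43 and 11.59 with DMSO, and its log2 fold change of 0.10 was -0.00095 without DMSO replicate 1.

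Split by mean signal into 3 bins of 37, the 111 probe sets differed in how far DMSO replicate 1 lay from the mean of the other arrays. The median distance was -0.12 in the lowest bin (up to a mean of 14.04), -0.089 in the middle bin and -0.057 in the highest bin (from 14.23). The within-group SD without that array was 0.043, 0.037 and 0.027. Among the 196 other genes with a mean of 13 or more, the median distance was -0.20, the median log2 fold change 0.063, and -0.0058 without DMSO replicate 1. In these probe sets and in the other bright genes, the median fold change thus lay on both sides of 0 according to whether DMSO replicate 1 was used.

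Of the 78 rpl- and rps- genes in RefSeq, 3 have no probe set of their own: rpl-18A, rpl-37.1 and rpl-37.2. A probe set shared by rpl-37.1 and rpl-37.2 had a log2 fold change of 0.017 (SE 0.092). Probe sets that list a member with a further gene gave 0.031 for rpl-8 and B0250.3 and -0.0076 for rpl-7A and Y73B3A.18. Of the 75 members, 38 are measured by a probe set whose name ends in _s_at and 10 by one ending in _x_at, which on this array type mark probes shared by several transcripts or open to cross-hybridisation.

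Other parts of the translation machinery were set beside the members. Of 8 further proteins of the cytosolic ribosome (the stalk proteins, rpsa-1, rack-1 and the fusions ubq-2 and fau-1), limma called 0, with a median log2 fold change of 0.055. The median was -0.00022 without DMSO replicate 1 and turned negative under cyclic loess normalization too. The smallest p was that of fau-1, with 13.84, 13.78 and 13.79 with ABZ and 13.59, 13.73 and 13.72 with DMSO, a log2 fold change of 0.12 (0.080 without DMSO replicate 1). Here the groups did not overlap, and the test did not pass. In 16 elongation and termination genes the median was 0.12, and 0.0040 without DMSO replicate 1; iff-2, an eIF5A homologue, had the smallest p, with a log2 fold change of 0.19 (0.16 without that array). The release factor genes erfa-3 and erfa-1 had 0.45 and 0.37, and 0.11 and 0.083 without it. The 32 initiation genes had a median of 0.21 and 0.028 without that array. The eif-2Bdelta gene encodes a subunit of the exchange factor that reloads initiation factor eIF2 with GTP. It measured 8.14, 7.84 and 7.89 with ABZ and 7.71, 7.73 and 7.63 with DMSO, without overlap. Its log2 fold change was 0.26 (SE 0.12, adjusted p 0.651 in limma), and 0.27 without DMSO replicate 1.

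The 38 measured ribosome biogenesis genes had a median of 0.19, and 0.0011 without DMSO replicate 1; rpac-19, a subunit of RNA polymerases I and III, had 0.32 and 0.13. The 59 genes of the mitochondrial ribosome, a separate machine that translates the mitochondrial genome, had a median of 0.21, of 0.017 without DMSO replicate 1, and -0.017 and -0.025 under quantile and cyclic loess normalization. In that list mrpl-23 had the smallest p, at 10.45, 10.37 and 10.38 with ABZ and 9.57, 10.22 and 10.14 with DMSO, without overlap. Its log2 fold change of 0.42 (SE 0.19) was 0.22 without DMSO replicate 1. At an unadjusted p under 0.05 limma picked 0 genes of these 5 lists with all arrays. Without DMSO replicate 1 it picked 2 initiation and 2 mitochondrial ribosome genes, at a background of 5.74% of all probe sets, and called none after adjustment. In all 5 lists DMSO replicate 1 held the lowest value of most genes: 7 of 8 further ribosome proteins, 16 of 16 elongation and termination, 27 of 32 initiation, 33 of 38 biogenesis and 54 of 59 mitochondrial ribosome genes. In the same order of lists, all 3 ABZ values lay above all 3 DMSO values in 2 of 8, 2 of 16, 5 of 32, 3 of 38 and 14 of 59 genes. The share over all genes was 1228 of 17118 (7.17%). The reverse order held in 0 genes of each list, against 10.2% of all genes. No difference between these lists and the ribosomal protein genes was tested.

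**Figure D5:**
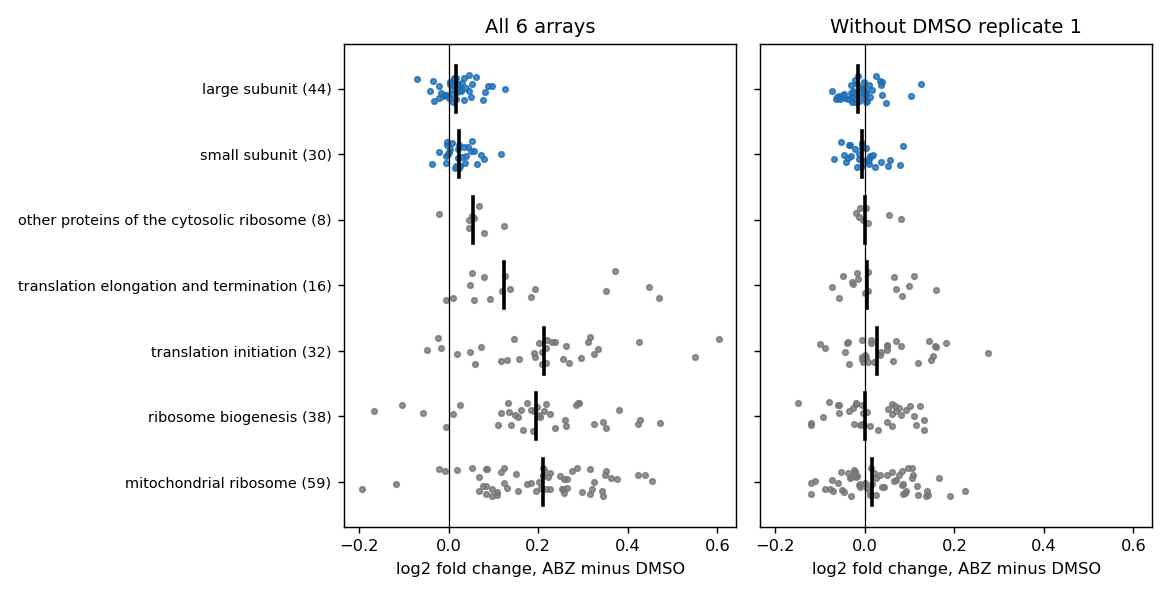
Log2 fold change (ABZ minus DMSO) of each gene (points) and list medians (black bars) for the bright ribosomal protein genes (blue) and 5 other lists (grey), with all 6 arrays on the left and without DMSO replicate 1 on the right. The medians run from 0.016 to 0.21 on the left and from -0.015 to 0.028 on the right.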

How the data were processed

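The deposited table holds 1 value for each of 22625 probe sets and 6 Affymetrix C. elegans arrays, 1 array per sample, made from 1 µg of total RNA. Per the submitters' processing notes, the authors used RMA and limma, without versions. The values were read as deposited log2 signal, a scale inferred from their range of 4.89 to 14.89. Array medians lay within 0.071 of each other. Precision is limited by the count of arrays.

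Tests ran on 22548 probe sets, without the array's 77 controls. Names came from the platform annotation, in which 20766 probe sets list 1 gene, 887 several and 895 none; all 75 members matched the RefSeq table of WBcel235 by gene number. No sequences or positions are given.

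Groups were compared with limma 3.58.1 in R 4.3.3 (group as the only term, eBayes defaults, two-sided), with Benjamini-Hochberg adjustment over all probe sets and a threshold of 0.05. The steps were tested on simulated data. Alternatives were 3 scalings, a filter on dim probe sets, the replicate number as a block, another variance model, array weights, arrays left out, probe set means and a threshold of 0.01. Lists were described by counts and medians only; 4 elongation, 1 initiation and 10 biogenesis names were not found in the annotation.

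The members and lists were chosen with earlier results of these data known. The 6 names of ribosomal proteins outside the rpl- and rps- symbols were added by name after the annotation had been read, because 4 listed names were not in it. Named genes are the dim member, per subunit the 4 genes of lowest p on each side of 0, members whose groups did not overlap, numbered paralogs, genes whose probe sets differ in sign and up to 3 genes per list.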

Additional observations from a re-analysis of the deposited data

How the results depend on the processing

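The count of called members stayed at 0 in limma under every alternative run. No alternative picked a member at an unadjusted limma p under 0.05 either. Every alternative used a variance moderated by limma, and no test on a gene's own spread alone was run. The small-subunit median of 0.024 became -0.0098 under quantile normalization, -0.0092 under cyclic loess normalization, -0.016 without replicate 1 of both groups and -0.0065 without DMSO replicate 1, also with an intensity trend and robust settings (chosen after seeing the data). With single arrays left out it ranged from -0.0065 to 0.045. The large-subunit median of 0.016 ranged from -0.015 to 0.041 with single arrays left out. It was -0.020 and -0.018 under quantile and cyclic loess normalization and 0.031 with the arrays shifted to 1 median. With gene-by-gene array weights the medians were -0.0089 and -0.0016, and DMSO replicate 1 had a weight of 0.043. Over all probe sets those weights gave 5 calls, and leaving out DMSO replicate 1 with the intensity trend gave 2, against 0 otherwise; none was a member. The value of rpl-42 stayed negative throughout and ranged from -0.40 to -0.034. The cause of the difference of DMSO replicate 1 was not tested.

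With the replicate number as a block, 0 members were called. The block cannot move a fold change in this balanced design, so its medians, 0.016 and 0.024, are those without it. Deviations of same-numbered arrays correlated at 0.12, 0.26 and 0.066 over probe sets, against -0.17 to 0.062 for arrays of different numbers. Across the groups, the deviations of each array correlated best with those of the array of its own number. For DMSO replicate 3 the next was close, at 0.062 with ABZ replicate 2. Nothing in the labels says that numbers mark a shared culture. What the replicates share beyond a group is not stated. The p values rest on the spread between these samples, which limma moderates towards that of the whole array.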
